A study of Mus musculus with 2 samples.

Results

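The miR-143 and miR-145 cluster is represented on the Agilent mouse microRNA (miRNA) array by 4 mature miRNAs, miR-143-5p, miR-143-3p, miR-145a-5p and miR-145a-3p, out of 1247 mouse miRNAs on the array. They are every arm of miR-143 and miR-145a, picked by name and not by a threshold on a value, and are read by 10 of the 3101 miRNA probes and by 160 of the 49880 miRNA spots of an array. Total RNA came from articular cartilage peeled from the knee joint of male mice aged 8 weeks. The control sample is labelled wildtype, and the other sample is labelled Col2a1Tsc1KO, for a deletion of Tsc1 directed by Col2a1. Col2a1 encodes the main collagen of cartilage, and Tsc1 encodes a restrainer of the growth kinase complex mTORC1. Which Cre line was used, how many mice gave each sample and whether they were littermates are not given in the sources used here. There was 1 array per group, so no difference below has a replicate check and no p-value was computed. In a bulk sample such as this, fewer cells of a type and less RNA per cell cannot be told apart.

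As background, miR-143 and miR-145 lie next to each other and are cut from a shared primary transcript, which is made mainly in smooth muscle of vessels and hollow organs, in pericytes and in fibroblasts. The pair is known for holding smooth muscle cells in their contractile, non-dividing state. In cartilage biology miR-145 is known as a repressor of Sox9, the transcription factor on which chondrocyte identity rests. Each precursor has an arm that is usually retained, the 3p arm of miR-143 and the 5p arm of miR-145, and a passenger arm that is usually degraded.

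Both retained arms carried more signal on the Col2a1Tsc1KO array, and neither passenger arm rose above background on either array. After scaling, miR-143-3p was 2.58-fold higher on the Col2a1Tsc1KO array, a log2 difference of 1.37 ± 0.02 (SE over spots). By the rule given below, miR-145a-5p was well above background on the Col2a1Tsc1KO array alone and was at least 1.54-fold higher there. miR-143-5p and miR-145a-3p gave no spot that was well above background among the usable spots of either array.

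The arrays were alike in quality. On the control array 19.6% and on the Col2a1Tsc1KO array 21.1% of miRNA spots were well above background, which is the scanner software's own mark, and no miRNA spot was saturated. A miRNA counted as measured on an array when over 50% of the usable spots of at least 1 of its probes carried that mark, and spots that the software marked as outliers were left out. By this rule 281 miRNAs were measured on the control array, 296 on the Col2a1Tsc1KO array and 257 on both. The cartilage miRNAs miR-140-5p and miR-140-3p were bright on both arrays, at scaled intensities of 1046 and 1197 on the control array and 2713 and 2403 on the Col2a1Tsc1KO array. The 75th percentile of the log2 intensity, to which each array was scaled, was 0.41 higher on the Col2a1Tsc1KO array, so a scaled difference is lower than an unscaled one by this amount. A scaled intensity is given at the level midway between both arrays.

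The 3p arm of miR-143 is the retained strand and the carrier of most of that precursor's activity. It is read by a 15-base and a 16-base probe with 20 spots each on each array. On the control array the 15-base probe gave background-subtracted intensities from 37.9 to 51.3 with a median of 43.6 over 20 usable spots. On the Col2a1Tsc1KO array it gave 141 to 167 with a median of 152.5 over 18 usable spots. All of these spots were well above background, and the lowest knockout spot lay far above the highest control spot. The 16-base probe gave 56.2 to 78.8 with a median of 66.35 on the control array. On the Col2a1Tsc1KO array it gave 210.0 to 250.0 with a median of 229. These ranges did not overlap either, and they stayed apart when the 4 spots marked as outliers on the Col2a1Tsc1KO array, the lowest of them at 162, were counted.

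Both probes gave the same size of difference. It was 1.37 ± 0.03 on the log2 scale for the 15-base probe and 1.36 ± 0.03 for the 16-base probe after scaling, and 1.78 and 1.77 without scaling. Since each spot has the same position on both arrays, the arrays were also compared position by position. At 36 of 36 positions usable on both arrays the knockout spot was the brighter one, with and without scaling. The scaled difference at single positions ran from 1.12 to 1.59 for the 15-base probe and from 1.18 to 1.64 for the 16-base probe. In the upper and lower part of the array it was 1.35 and 1.40 for the 15-base probe and 1.36 and 1.38 for the 16-base probe. Both parts of the array showed a difference of similar size. Spots of an array share 1 RNA sample, so this evenness describes the arrays and not the mice.

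**Figure D1:**
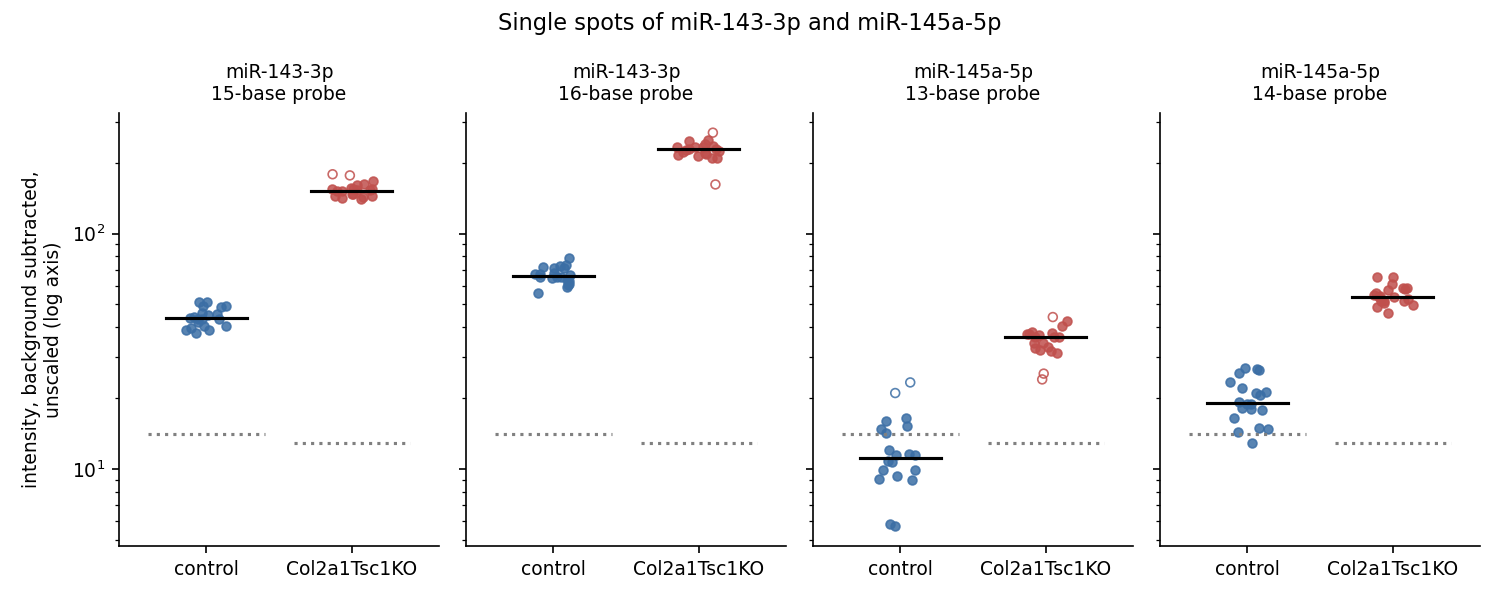
Background-subtracted, unscaled intensity (log axis) of every spot of the probes of miR-143-3p and miR-145a-5p on the control (blue) and Col2a1Tsc1KO (red) array; filled points are usable spots, open points are spots marked as outliers, black bars are medians of usable spots and dotted lines mark the highest 2.5% of negative-control spots. The knockout spots of both miR-143-3p probes lie above all control spots, and the control spots of miR-145a-5p lie near the dotted line.

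Among the 257 miRNAs measured on both arrays, the difference of miR-143-3p had rank 22 from the top. It was the only one of the 4 cluster members that could be ranked, and it was at least 2-fold higher on the Col2a1Tsc1KO array, as were 40 of the 257 miRNAs (15.6%), while 45 (17.5%) were at least 2-fold lower. A 2-fold difference is thus common between these arrays. The median over the 257 miRNAs was -0.22, so miR-143-3p lay 1.58 above it. The split into higher and lower depends on the scaling: without any, 59 of the 257 (23%) were past 2-fold upward and 13 (5.06%) past 2-fold downward, and miR-143-3p stood at 1.78, again 1.58 above the median and at rank 22. After normexp background correction with an offset of 50 and quantile normalization, miR-143-3p fell short of 2-fold at 0.91, with 16 miRNAs at least 2-fold higher and 9 lower.

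**Figure D2:**
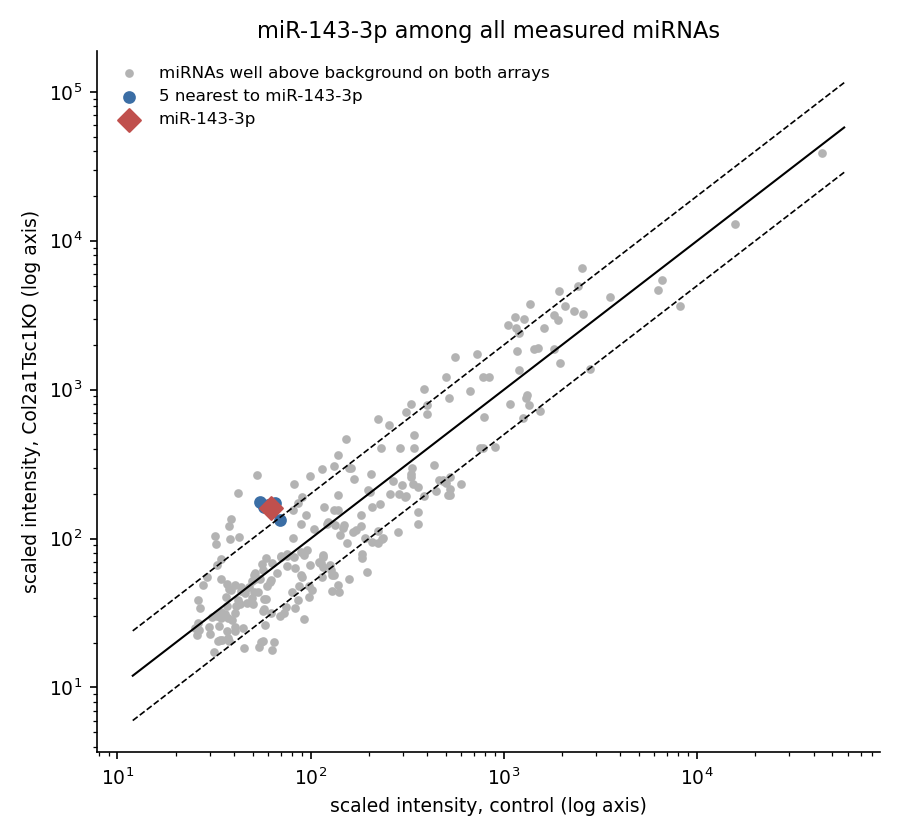
Scaled intensity on the Col2a1Tsc1KO array against that on the control array (both axes log) for the 257 miRNAs measured on both; the solid line marks equality and the dashed lines 2-fold differences. miR-143-3p (red diamond, 62.4 on the control and 161 on the Col2a1Tsc1KO array) lies above the upper dashed line in a sparsely filled part of the plot, with 4 of its 5 nearest miRNAs (blue) also above it.

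The miRNAs whose pair of scaled log2 levels lay nearest to that of miR-143-3p were found by the Euclidean distance over the 2 arrays. Levels of different probes also depend on how well each probe binds, so the distance describes these readings and not molecule numbers. The nearest was miR-146a-5p, a brake on inflammatory signalling, at a distance of 0.087 with a difference of 1.49 ± 0.04. It was followed by miR-125a-5p at 0.12 with a difference of 1.49 ± 0.04 and by the hypoxia-induced miR-210-3p at 0.13 with a difference of 1.42 ± 0.03. Next came miR-196b-5p, which lies in a Hox gene cluster, at 0.23 with a difference of 1.69 ± 0.03. The fifth, miR-365-3p, was at a distance of 0.31 and had a smaller difference of 0.94 ± 0.03.

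The 5p arm of miR-145a is the retained strand of that precursor and the one known to act on Sox9. On the control array both of its probes missed the background mark, the 14-base probe narrowly. Its 13-base probe gave 5.71 to 16.5 with a median of 11.15 over 18 usable control spots, none of them well above background (exact Clopper-Pearson 95% interval of the share 0 to 18.5%). On the Col2a1Tsc1KO array the same probe gave 31.1 to 42.4 with a median of 36.3, and 17 of 17 usable spots were well above background. Its 14-base probe gave 12.9 to 26.9 with a median of 19 on the control array, where 6 of 20 spots were well above background (30%, exact interval 11.9% to 54.3%). On the Col2a1Tsc1KO array it gave 45.8 to 65.5 with a median of 54.05, and 20 of 20 spots were well above background. These intervals cover the counting of spots alone.

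The control signal of miR-145a-5p lay in the upper range of the negative controls. Of the 1000 negative-control spots on the control array, 93.3% lay below the median of the 13-base probe and 99.4% below that of the 14-base probe, and all usable control spots of both probes were above 0. At 35 of 35 shared positions the knockout spot was brighter, with and without scaling. The usable spots of the arrays did not overlap for either probe, scaled or not. With outlier spots counted, the scaled ranges of the 13-base probe did overlap, since the highest control spot reached 26.9 and the lowest knockout spot 20.8.

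Because miR-145a-5p did not count as measured on the control array, only a bound was taken for it. The bound sets the scaled knockout signal against the higher of the control signal itself and the lowest scaled control probe well above background, which was at 24.9. It came to at least 1.54-fold with scaling and at least 2.05-fold without. In all, 39 of the 1247 miRNAs (3.13%) were well above background on the Col2a1Tsc1KO array alone, against 24 on the control array alone. The bound of miR-145a-5p was the third largest of those 39, of which 18 had a bound above 1.

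The software's summary value for miR-145a-5p on the control array held a sum equal to another miRNA's total. For each miRNA the software sums the signals of the probes that it accepts, and in these files a probe was accepted when its total exceeded 3 times its error. On the control array the 14-base probe, at a total of 7.77 and 4.11 times its error, was accepted. The 13-base probe, at 4.41 and 2.49 times its error, was not. The software thus counted miR-145a-5p as detected on the control array, which the rule used here did not. The written total was 29.8, which exceeds the accepted probe by 22.1. The total of miR-144-3p, the detected miRNA next before it in name order, was also 22.1. On the Col2a1Tsc1KO array both probes were accepted, and the written total of 35.8 was their sum. An excess over the accepted probes was present in 83 of 327 detected miRNAs on the control array and in 93 of 348 on the Col2a1Tsc1KO array. It matched the total of the preceding detected miRNA in 78 and 87 of these, within 0.02 or the rounding of the totals. The totals of miR-143-3p, 43.3 and 149.7, were free of them.

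The size reported for miR-145a-5p therefore depends on which summary is read. The unscaled totals as written differ by 0.26 on the log2 scale, or 1.20-fold. Without the carried sum, so that 1 probe on the control array is set against 2 on the Col2a1Tsc1KO array, they differ by 2.21, or 4.61-fold. With both probes counted on both arrays the difference is 1.56, or 2.94-fold. The series' deposited table of log2 values gives miR-145a-5p as 3.03 on the control and 5.03 on the Col2a1Tsc1KO array, a difference of 2.00, which is the fifth largest among its 304 miRNAs above the floor on both arrays. A rebuild of that table from the accepted probes, without the carried sum and with quantile normalization, met the deposited differences within 0.01 for 246 of 304 miRNAs. The deposited values of miR-143-3p were 5.55 and 6.99, a difference of 1.45 at rank 28. Both retained arms were thus at least 2-fold higher in that table, as were 51 of its 304 miRNAs (16.8%).

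**Figure D3:**
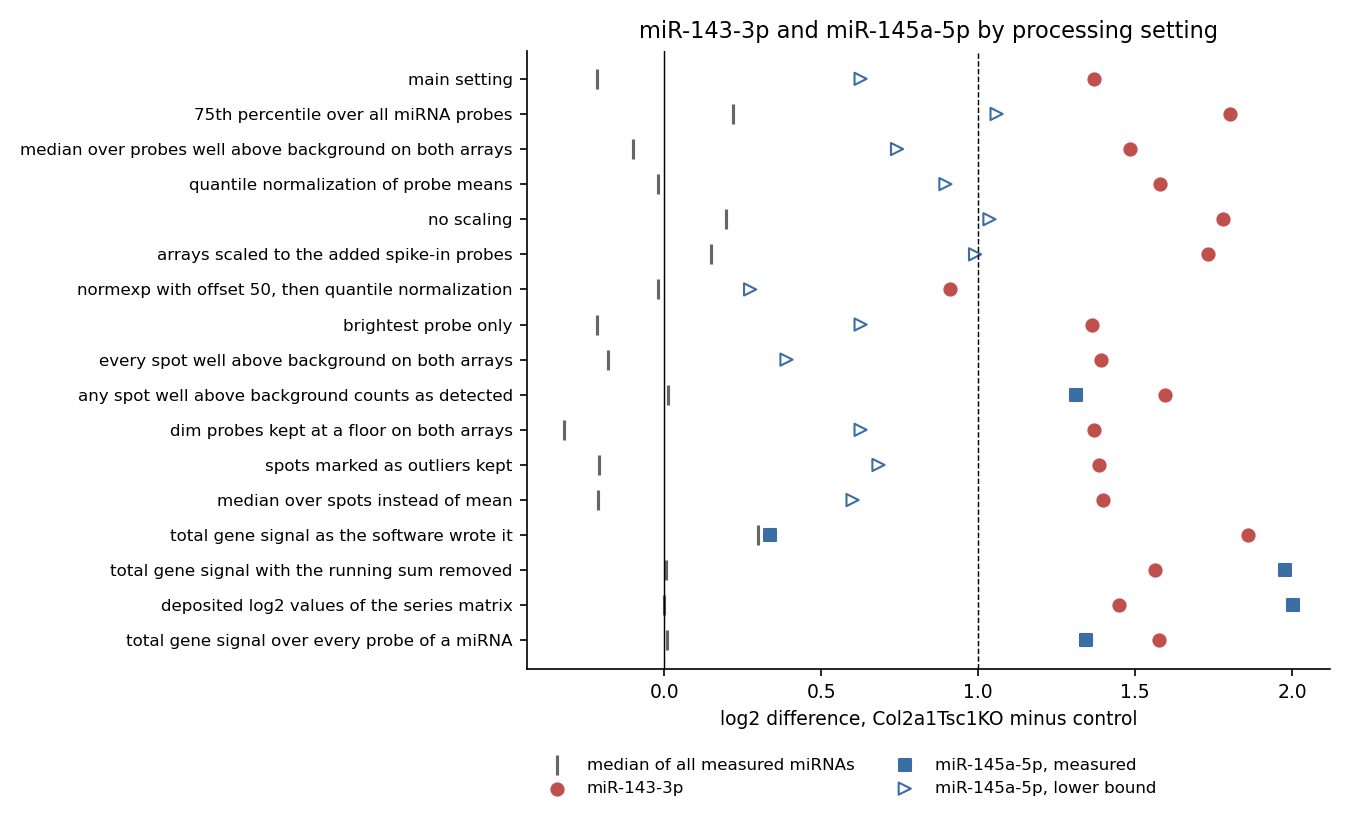
Log2 difference, Col2a1Tsc1KO minus control, of miR-143-3p (red circles), of miR-145a-5p (blue squares where measured, open triangles where only a lower bound could be taken) and the median of all measured miRNAs (grey bars) under the main setting and each alternative; the dashed line marks a 2-fold difference. miR-143-3p runs from 0.91 to 1.86 and miR-145a-5p from 0.27, a lower bound, to 2.00, a measured value, and both are above 0 throughout.

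The passenger arms were not above the negative-control spots. miR-143-5p is read by a 14-base and a 15-base probe, and miR-145a-3p by 4 probes of 18 to 21 bases with 10 spots each. The 72 usable spots of both arms on the control array ran from -8.48 to 8.52 with a median of 0.078. The 74 usable spots on the Col2a1Tsc1KO array ran from -7.96 to 7.80 with a median of 0.35. Negative-control spots had a median of 5.02 on the control and 4.93 on the Col2a1Tsc1KO array, with the highest 2.5% above 14.0 and 12.9, and no usable spot of the passenger arms exceeded these values. The medians of the passenger arms lay below those of the negative controls on both arrays. A single control spot of the 14-base probe of miR-143-5p reached 46.4, but the software marked it as an outlier. The knockout spot was the brighter one at 20 of 35 shared positions for miR-143-5p and at 21 of 34 for miR-145a-3p, without scaling. No fold is given where both arrays are at background, and a difference between the passenger arms of the arrays was not detectable at this signal. In the deposited table both passenger arms stand at the floor, -3.26 on the control and -3.32 on the Col2a1Tsc1KO array.

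**Figure D4:**
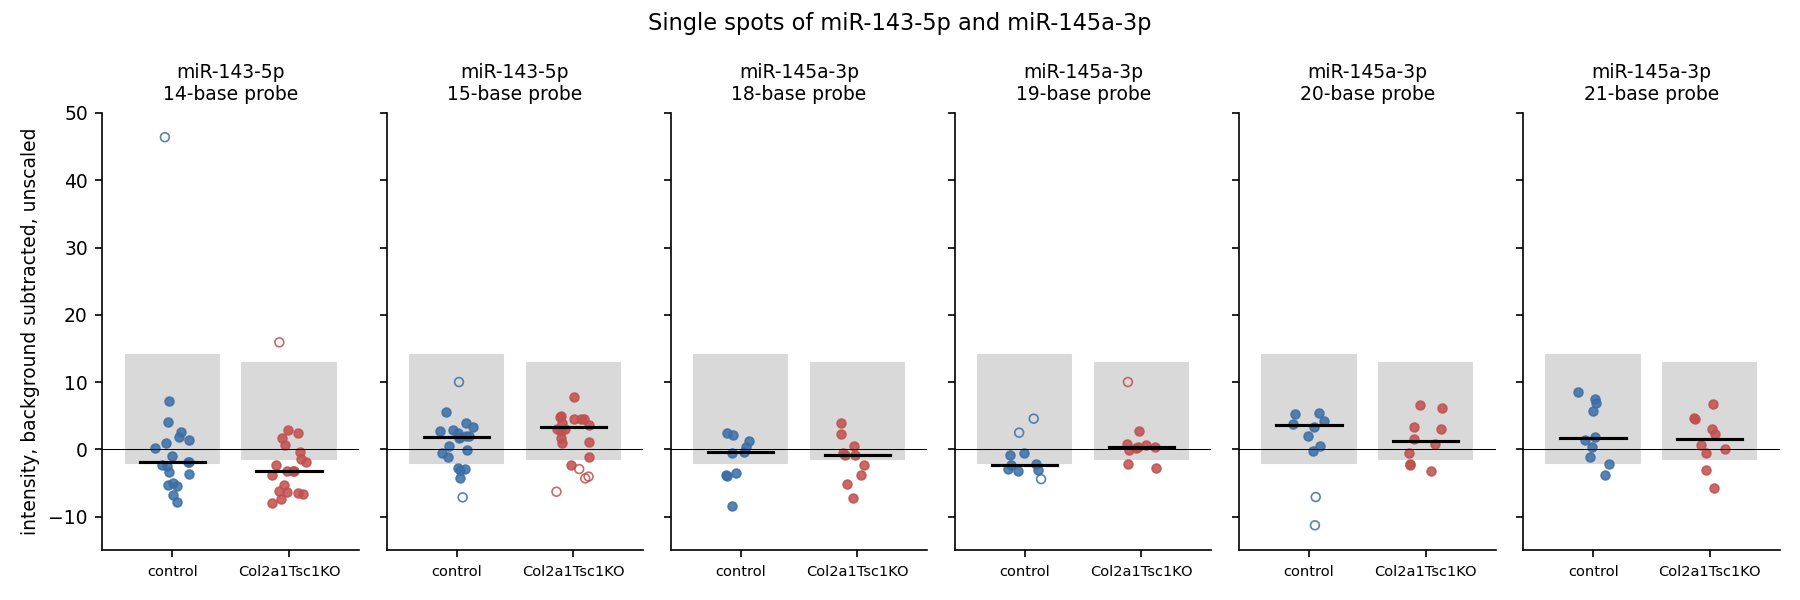
Background-subtracted, unscaled intensity (linear axis) of every spot of the probes of miR-143-5p and miR-145a-3p on the control (blue) and Col2a1Tsc1KO (red) array; filled points are usable spots, open points outliers, black bars medians, and grey bands span the middle 95% of the 1000 negative-control spots of each array. The usable spots of both arms lie within or below the grey bands on both arrays.

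A single measured arm was the usual pattern on these arrays. Of 422 miRNA names with both a 5p and a 3p arm on the array, 182 had at least 1 arm measured on at least 1 array. Of these, 152 (83.5%) had 1 arm alone, 81 of them the 5p arm, as in miR-145a, and 71 the 3p arm, as in miR-143. miR-145b, which has a similar name but is not an arm of the cluster, was not well above background at any spot of its 2 probes on either array.

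The cluster was next set beside lists of miRNAs, which were chosen with earlier results of these data known. Contrasts of these lists with all miRNAs are therefore not independent support. The first list held miRNAs known from the vessel wall and smooth muscle. Of the 15 entries of that list 14 were on the array and 11 were measured on both arrays, with a median difference of 0.94, or 0.87 over the 10 other than miR-143-3p, against -0.22 over all 257 miRNAs. On the Col2a1Tsc1KO array 4 of the 10 were at least 2-fold higher and none was at least 2-fold lower, against 15.6% and 17.5% of all miRNAs. The 4 were miR-23b-3p at 1.56 ± 0.01, miR-24-3p at 1.44 ± 0.01, miR-10b-5p at 1.41 ± 0.03 and miR-100-5p at 1.36 ± 0.03. miR-365-3p at 0.94 and miR-26a-5p at 0.80 ± 0.01 lay below 2-fold, and miR-10a-5p stood at 0.15 ± 0.02. The other members of the list measured on both arrays also lay within 2-fold. Of these miR-21a-5p stood at 0.25 ± 0.02, which turns negative under 3 of 16 settings. Here and for the markers below, the settings include the main one and leave out the software's totals as written. miR-221-3p stood at -0.28 ± 0.02 and miR-222-3p at -0.23 ± 0.04, both of which turn positive under some settings, for instance to 0.13 and 0.18 without scaling.

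The list of miRNAs linked to transforming growth factor beta (TGF-beta) and mesenchymal cells had 8 of 8 members measured on both arrays and a median of 1.09 against -0.22 over all miRNAs. Its 4 members at least 2-fold higher, against 15.6% of all miRNAs, were miR-214-3p at 2.36 ± 0.03, miR-199a-5p at 1.495 ± 0.02, miR-199a-3p at 1.46 ± 0.01 and miR-152-3p at 1.41 ± 0.02. The collagen-targeting miR-29 members lay lower, with miR-29a-3p at 0.62 ± 0.01, miR-29b-3p at 0.49 ± 0.02 and miR-29c-3p at 0.78 ± 0.02. The lowest member was miR-21a-5p, also in the vessel wall list, at 0.25 ± 0.02. Of the 10 miRNAs reported to act on Sox9 or the cartilage matrix, 7 were measured on both arrays, with a median of 1.0004. Of these, 4 were at least 2-fold higher and 1 was at least 2-fold lower, against 15.6% and 17.5% of all miRNAs. The higher ones were miR-455-3p at 1.71 ± 0.05, miR-140-5p at 1.38 ± 0.01 and, just past the threshold, miR-140-3p at 1.01 ± 0.01 and miR-101a-3p at 1.0004 ± 0.02. The lower one was miR-494-3p at -1.01 ± 0.02. Among the remaining entries of that list, miR-30a-5p at 0.88 ± 0.03 and miR-455-5p at -0.03 ± 0.14, while miR-1247-5p and miR-675-5p were not measured on either array.

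**Figure D5:**
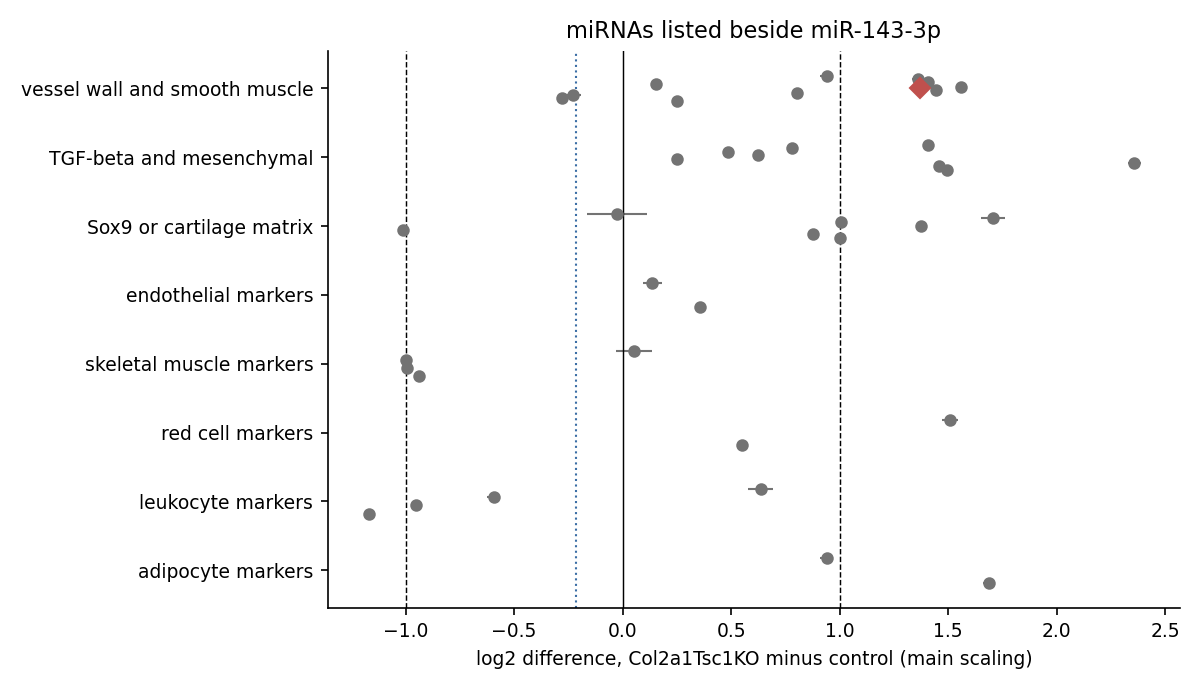
Log2 difference, Col2a1Tsc1KO minus control, of the miRNAs of each list shown that were measured on both arrays (points, with the SE over spots). The cartilage markers and the smooth muscle and fibroblast markers are not drawn as lists. The red diamond is miR-143-3p, dashed lines mark 2-fold differences and the dotted line is the median of all 257 miRNAs, -0.22. miR-143-3p lies in the upper group of the vessel wall list, and the skeletal muscle and leukocyte markers lie mainly below 0.

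Markers of several cell types differed between the arrays, and their part in the result was not tested. A list's sum below adds, over its miRNAs, the arithmetic mean of the scaled spot intensities over all probes, measured or not, so it differs from a sum of the scaled intensities given above, which are means of log2 values over measured probes. The 4 markers of smooth muscle and fibroblasts, which include both retained arms, summed to 349 on the control and 680.04 on the Col2a1Tsc1KO array. The 2 that are not arms of the cluster are miR-10b-5p, past 2-fold, and miR-10a-5p, not past it, with a median of 0.78. The 4 cartilage markers summed to 2489 and 5586, with 3 of 4 at least 2-fold higher. Of all 257 miRNAs, 15.6% were past 2-fold upward and 17.5% past it downward. The counts past 2-fold in these short marker lists were not tested against those shares. The endothelial pair, miR-126-3p and miR-126-5p, summed to 1541 and 1967 with neither past 2-fold, at differences of 0.35 ± 0.01 and 0.14 ± 0.04. These 2 are miRNAs of the vessel lining, and each turned negative under at least 1 setting. The skeletal muscle markers summed to 1933 and 1032, with 0 of 4 past 2-fold and differences of -0.94 for miR-1a-3p, -0.99 for miR-133a-3p, -0.996 for miR-133b-3p and 0.05 for the dim miR-206-3p. The leukocyte markers summed to 10531 and 4963, with 1 of 4 at least 2-fold lower, miR-223-3p at -1.17 ± 0.01, which makes up most of the sum. The arms of miR-142 were also lower (3p, -0.95 ± 0.03, and 5p, -0.59 ± 0.03), whereas the lymphocyte miR-150-5p stood the other way at 0.64 ± 0.06. The red cell markers on the array summed to 2405 and 3615. Of these miR-144-3p stood at 1.51 ± 0.04 and miR-451a at 0.55 ± 0.01, which turned negative under 2 of the same 16 settings. miR-144-5p was measured on the Col2a1Tsc1KO array alone, with no bound above 1. In the only setting that gave miR-144-5p a difference, it stood at -0.30. The 2 adipocyte markers on the array under their listed names summed to 109.8 and 261. They were miR-193b-3p at 1.69 ± 0.03 and miR-365-3p at 0.94 ± 0.03. The remaining entry, miR-378-3p, has no probe under that name. The array's miR-378a-3p, left out of the list and its sum, stood the other way at -0.12 ± 0.02. No marker list summed to 0 on either array, which follows from each list holding measured miRNAs. Which cell types were present was not tested.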

How the data were processed

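Each sample was hybridised to a 1-colour (Cy3) Agilent mouse miRNA array, and both arrays lay on 1 slide, so slide position and group cannot be told apart. Per the submitters' processing notes and the file headers, Agilent Feature Extraction 10.7 wrote the deposited spot intensities, background-subtracted and unscaled between arrays. The deposited table holds log2 values, 1 row per miRNA; its making is not stated in the labels. Its column medians, which equal its floors, were -3.26 for the control and -3.32 for the knockout, and the rebuild showed a log2 scale, quantile normalization and the direction of the signals.

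From the intensities, log2 values were averaged over the usable spots of a probe. Scaling set the 75th percentile equal between arrays, taken over 476 probes that passed on both, and probe differences were averaged per miRNA. Errors are SEs over spots and hold technical noise alone, and the number of arrays limits the precision. A log2 difference of 1 (2-fold) served for counts. Python 3.11.15, numpy 2.4.6, pandas 2.3.3, scipy 1.17.1 and, for normexp, limma 3.58.1 in R 4.3.3 were used. The steps were also run on the control array and a resampled copy of it with known changes. Differences in that run were recentred on the unchanged miRNAs, so it could not check the scaling between arrays. The named miRNAs are the members, miR-145b, the 5 nearest to miR-143-3p, the measured members of the lists and miR-378a-3p. Members and lists were chosen with earlier results of these data known. List entries without a probe under that name (miR-663, miR-486-5p, miR-378-3p) were left out of their lists. They were not looked up under other names, apart from miR-378a-3p. Sequences and genome positions of the cluster are not reported here. Alternatives covered scaling, background correction, the software's totals, the deposited values, probes, dim probes, outlier spots and the spot summary.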

Additional observations from a re-analysis of the deposited data

How the results depend on the processing

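miR-143-3p stayed higher on the Col2a1Tsc1KO array under all 16 alternatives, from 0.91 to 1.86 on the log2 scale. Its value, 1.37, moved by more than the spread between spots with quantile normalization (1.58), spike-in scaling (1.73), no scaling (1.78), a 75th percentile over all miRNA probes (1.80), normexp and quantile normalization (0.91), any spot counted as detection (1.597), and the software's totals as written (1.86), without the carried sum (1.56) and over every probe (1.58, chosen after seeing the data). The normexp setting adds an offset of 50, which shrinks differences of dim miRNAs by construction. For miR-145a-5p the bound of 1.54-fold became 2.08-fold when all probes set the 75th percentile, and measured folds were 1.26 with the totals as written, 2.48 with any spot counted as detection, 3.94 with totals without the carried sum, 2.54 with totals over every probe and 4.01 in the deposited values. Over the 16 alternatives, bounds and measured folds together ran from 1.21, a lower bound after normexp, to 4.01, the measured fold in the deposited values. Of the 4 members, 1 was at least 2-fold higher at the main setting, beside 15.6% of all measured miRNAs, and 0 after normexp, beside 6.23%. In both settings only 1 member was measured on both arrays. The count was 2, of 2 members measured, with any spot counted (beside 18.7% of all measured miRNAs) and totals without the carried sum (20.1%). It was also 2 with totals over every probe (17.2%) and the deposited values (16.8%). Bounds were left out of these counts. The bound of miR-145a-5p also passed 2-fold without scaling (2.05) and with all probes behind the 75th percentile (2.08).

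Over all miRNAs, 40 were at least 2-fold higher and 45 lower. The lower count became 14 with spike-ins, 13 with no scaling and 13 with all probes behind the 75th percentile. After normexp 16 were higher and 9 lower, with the totals as written 80 and 24, and without the carried sum 61 and 41. The median of all miRNAs shifted from its main value by 0.36, 0.41 and 0.43 with the first 3 of these, by 0.195 after normexp, by 0.20 with quantile normalization and by 0.12 with median scaling. Signal over background limits miR-145a-5p on the control array and both passenger arms on both arrays. No paired analysis was possible because each group has 1 array, and for the same reason no replicate could be left out.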
